A study of Mus musculus with 19 samples.

Results

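Fatty acid oxidation genes were followed in whole obstructed kidneys of CD5L KO and WT mice given recombinant CD5L (rCD5L) or PBS. The 46 genes were taken from the gene table by symbol, as the enzymes and carriers of mitochondrial and peroxisomal beta-oxidation, the carnitine shuttle and the PPAR-alpha axis, out of 54532 genes listed. The rule for membership was the known role of a gene and used no measured value. By role they were 7 genes of fatty acid binding and of acyl-CoA formation or cleavage (Fabp3, Acsl1, Acsm1, Acsm2, Acsm3, Acot1, Acot2), 6 of the carnitine shuttle (Cpt1a, Cpt1b, Cpt2, Slc25a20, Crot, Crat), 6 acyl-CoA dehydrogenases (Acadm, Acadl, Acadvl, Acads, Acad11, Acadsb) and 3 electron transfer genes (Etfa, Etfb, Etfdh). A further 9 act in mitochondria after the dehydrogenases (Echs1, Hadha, Hadhb, Hadh, Acaa2, Eci1, Eci2, Ech1, Decr1), 12 in peroxisomes (Acox2, Acox3, Ehhadh, Hsd17b4, Acaa1a, Acaa1b, Decr2, Scp2, Amacr, Phyh, Abcd3, Pex11a) and 3 as regulators or targets of PPAR-alpha (Ppara, Ppargc1a, Pdk4).

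The kidneys came from 19 male mice on a C57BL/6J background, 8 to 9 weeks old, whose left ureter was tied and cut (unilateral ureteral obstruction, UUO) while the right kidney was left in place. The left kidneys were taken after heparin perfusion on day 12 and measured by bulk RNA-seq. CD5L is a protein that tissue macrophages secrete into the blood, where it circulates with IgM. PBS or 0.5 mg rCD5L per mouse was injected into the abdomen daily. The 4 groups were WT mice given PBS (n = 5), WT mice given rCD5L (n = 5), CD5L KO mice given PBS (n = 4) and CD5L KO mice given rCD5L (n = 5), each kidney being a separate biological replicate. All mice had UUO, so no value here compares an obstructed with an unobstructed kidney.

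Fatty acid oxidation shortens acyl-CoA chains by repeated dehydrogenation, hydration, dehydrogenation and thiolysis, and it is the main source of ATP in proximal tubule cells. Long chains enter mitochondria as carnitine esters, very long and branched chains are first handled in peroxisomes, and the nuclear receptor PPAR-alpha with its coactivator PGC-1alpha controls many of the enzymes. Loss of this pathway in tubule cells is a known feature of fibrotic kidneys.

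Promoter windows are printed for 4 genes: those of Cpt1a, Acadm and Acadvl, which stand for the carnitine shuttle and the first oxidation step and hold the half-site AGGTCA of nuclear receptors of the PPAR type, and that of Hadhb, which shares most of its bases with the window of the neighbouring Hadha. Each window runs from 250 bases before to 50 bases after the transcription start, 5′ to 3′ on the strand of the gene, in the RefSeq sequence of build GRCm38.p6. In the first 3, capitals mark AGGTCA or its reverse complement TGACCT.
Cpt1a, chr19:3323051-3323350 (plus strand): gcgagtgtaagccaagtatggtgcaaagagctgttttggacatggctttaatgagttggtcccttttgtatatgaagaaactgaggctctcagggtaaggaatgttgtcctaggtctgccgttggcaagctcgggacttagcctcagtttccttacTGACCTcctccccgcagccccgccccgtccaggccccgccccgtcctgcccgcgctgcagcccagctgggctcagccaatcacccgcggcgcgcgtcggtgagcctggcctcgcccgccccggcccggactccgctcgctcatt
Acadm, chr3:153944594-153944893 (minus strand): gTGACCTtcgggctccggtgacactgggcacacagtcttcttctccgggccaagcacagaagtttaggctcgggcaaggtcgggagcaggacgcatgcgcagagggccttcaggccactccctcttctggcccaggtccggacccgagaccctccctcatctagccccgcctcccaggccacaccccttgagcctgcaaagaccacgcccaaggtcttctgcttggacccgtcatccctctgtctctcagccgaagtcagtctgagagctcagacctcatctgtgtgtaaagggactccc
Acadvl, chr11:70015379-70015678 (minus strand): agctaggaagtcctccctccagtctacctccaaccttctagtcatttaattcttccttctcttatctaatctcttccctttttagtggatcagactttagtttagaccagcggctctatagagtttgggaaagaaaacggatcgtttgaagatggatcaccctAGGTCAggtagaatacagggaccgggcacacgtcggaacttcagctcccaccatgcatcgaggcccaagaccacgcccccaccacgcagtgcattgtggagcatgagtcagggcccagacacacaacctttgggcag
In the last one, capitals mark the 228 bases that also lie in the Hadha window, since both genes start within 273 bases of each other on opposite strands.
Hadhb, chr5:30155003-30155302 (plus strand): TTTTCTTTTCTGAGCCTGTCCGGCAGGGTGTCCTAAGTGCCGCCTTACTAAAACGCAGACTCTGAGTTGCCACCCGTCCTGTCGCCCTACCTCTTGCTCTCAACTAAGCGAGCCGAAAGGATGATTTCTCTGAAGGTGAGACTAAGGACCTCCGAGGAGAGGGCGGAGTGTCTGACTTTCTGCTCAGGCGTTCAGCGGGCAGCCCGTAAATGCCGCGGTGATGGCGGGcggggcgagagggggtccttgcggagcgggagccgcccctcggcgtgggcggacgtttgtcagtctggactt

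Of the 46 genes, 40 had such a window, in 44 windows in all, and Hsd17b4, Acaa2, Cpt1b, Crat, Decr1 and Amacr had none. AGGTCA, searched on both strands, was present in 7 of the 44 windows (15.9%), those of Acadm, Acadvl, Acsm1, Cpt1a, Echs1, Phyh and Scp2, and in 16.3% of the 32851 windows of all genes. The direct repeat AGGTCANAGGTCA, the consensus bound by PPAR and RXR together, was in 0 of the 44 windows and in 13 of 32851. These counts describe the letters of the windows.

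Levels between genes were compared in FPKM, which is scaled to gene length. Over the 19 kidneys, Acadl, the long-chain acyl-CoA dehydrogenase, had the highest median level (94.3 FPKM), followed by Ech1 (72.3 FPKM), Scp2 (68.5 FPKM) and Cpt1a (65.6 FPKM). The ranges of these 4 genes over the kidneys overlapped, so their order is not set beyond that spread. The least abundant genes were Ppara (2.22 FPKM) and Cpt1b, the muscle form of carnitine palmitoyltransferase 1 (0.0688 FPKM), while Cpt1a, the liver form, was the form found in quantity. All 46 genes had counts, and 46 passed the filter on low counts in the comparison under PBS.

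Other values are given in CPM, that is counts scaled to a common library size by the TMM method, and compare a gene between kidneys. Total counts ran from 17917491 to 23847090 per kidney. The Cd5l gene itself had 3 to 15 counts in WT kidneys and 0 in each of the knockout kidneys (a count of 0 allows up to 3). The kidneys held defining proximal tubule markers throughout: none of the 16 markers was at 0 in any kidney. Replicate 4 of CD5L KO mice given rCD5L stood apart from all others. Its proximal tubule markers summed to 23256 CPM, against 1706 to 4227 in the other 18 kidneys, with 16 of 16 markers highest there, and 13 of 13 mitochondrially encoded mRNAs were also highest there. Replicate 4 was also highest for 4 of 5 thick ascending limb, 3 of 5 intercalated cell and 5 of 5 hepatocyte markers. For example, Egf had 770 CPM there and at most 97.1 CPM in the other 18 kidneys. Of principal cell and endothelial markers 1 of 5 each, and of distal convoluted tubule markers 1 of 3, were highest there. All 6 injured tubule, 7 fibroblast, 6 macrophage and 5 T cell markers were lowest there. In replicate 3 of the same group, 6 of 6 skeletal muscle markers were highest of all kidneys, for example Acta1 (17.4 CPM) and Myh4 (14.3 CPM).

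The fatty acid oxidation genes were part of what set replicate 4 apart. It was the highest of 19 kidneys for 44 of the 46 genes, and the median gene there was 3.21 times the median of replicates 1, 2 and 5 of its group. At least 2-fold was reached by 41 genes, at least 4-fold by 15, and none stayed under 1.5-fold. By role, the median fold was 4.35 for fatty acid binding and acyl-CoA forming or cleaving enzymes, 3.76 for peroxisomal genes, 3.57 for acyl-CoA dehydrogenases and 2.72 for the remaining mitochondrial enzymes. The highest fold, 22.4, was that of Acsm3, a medium-chain acyl-CoA synthetase, with 804 CPM in replicate 4 and 22.5 to 40.2 CPM in replicates 1, 2 and 5. Acsm2 of the same family was 12.3 times and the branched-chain oxidase Acox2 10.9 times the reference. The lowest folds were those of Hadha (1.60), Ppargc1a (1.65) and Acaa1a (1.74). The 2 genes that were not highest there were Cpt1b and Pdk4. In replicate 3 the median gene was 1.29 times the same reference, 16 genes were at least 1.5-fold and 2, Acadsb and Ppargc1a, were at most 0.67-fold. In bulk tissue, a larger share of proximal tubule or other nephron cells and more RNA of a gene per cell cannot be told apart. The part of tubule or muscle RNA in the values of these 2 kidneys was not tested, and comparisons that hold this group are given with and without them.

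**Figure D1:**
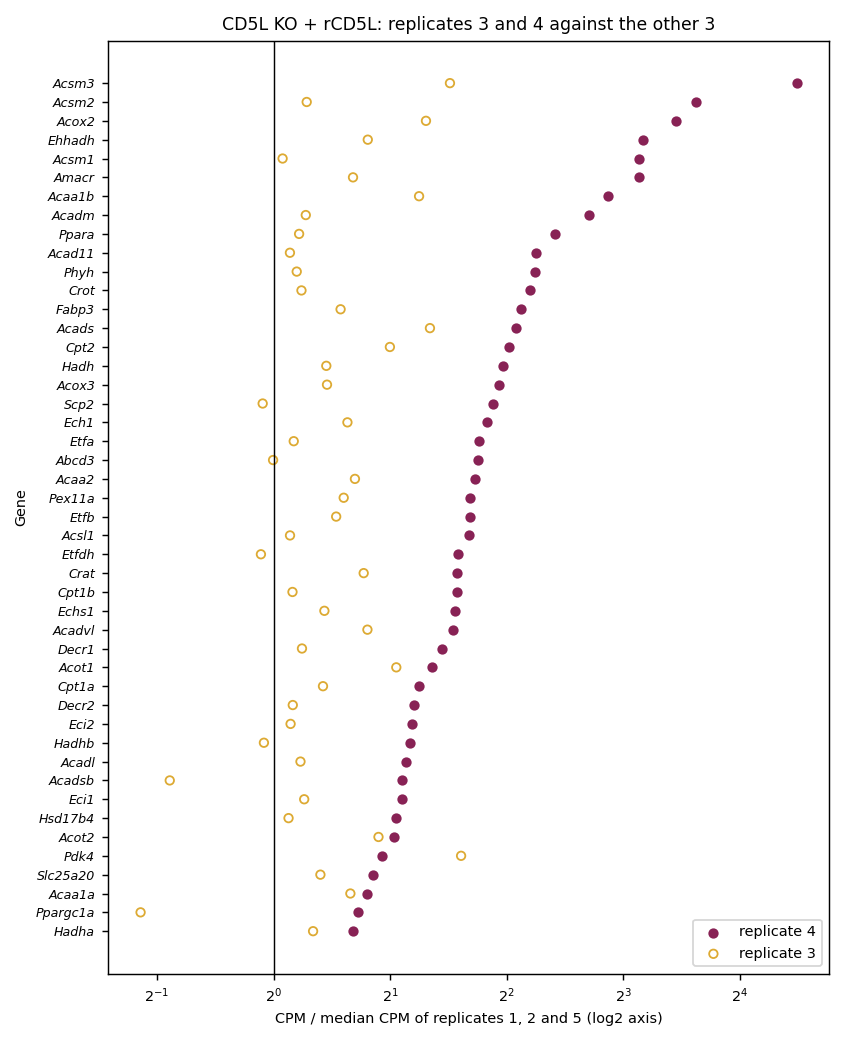
Fold of each of the 46 genes in replicates 4 (filled) and 3 (open) of CD5L KO mice given rCD5L, as CPM over the median CPM of replicates 1, 2 and 5 of that group, on a log2 axis, ordered by replicate 4. All filled points lie at 1.5-fold or more and 15 at 4-fold or more, while open points scatter around 1.29-fold.

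**Figure D2:**
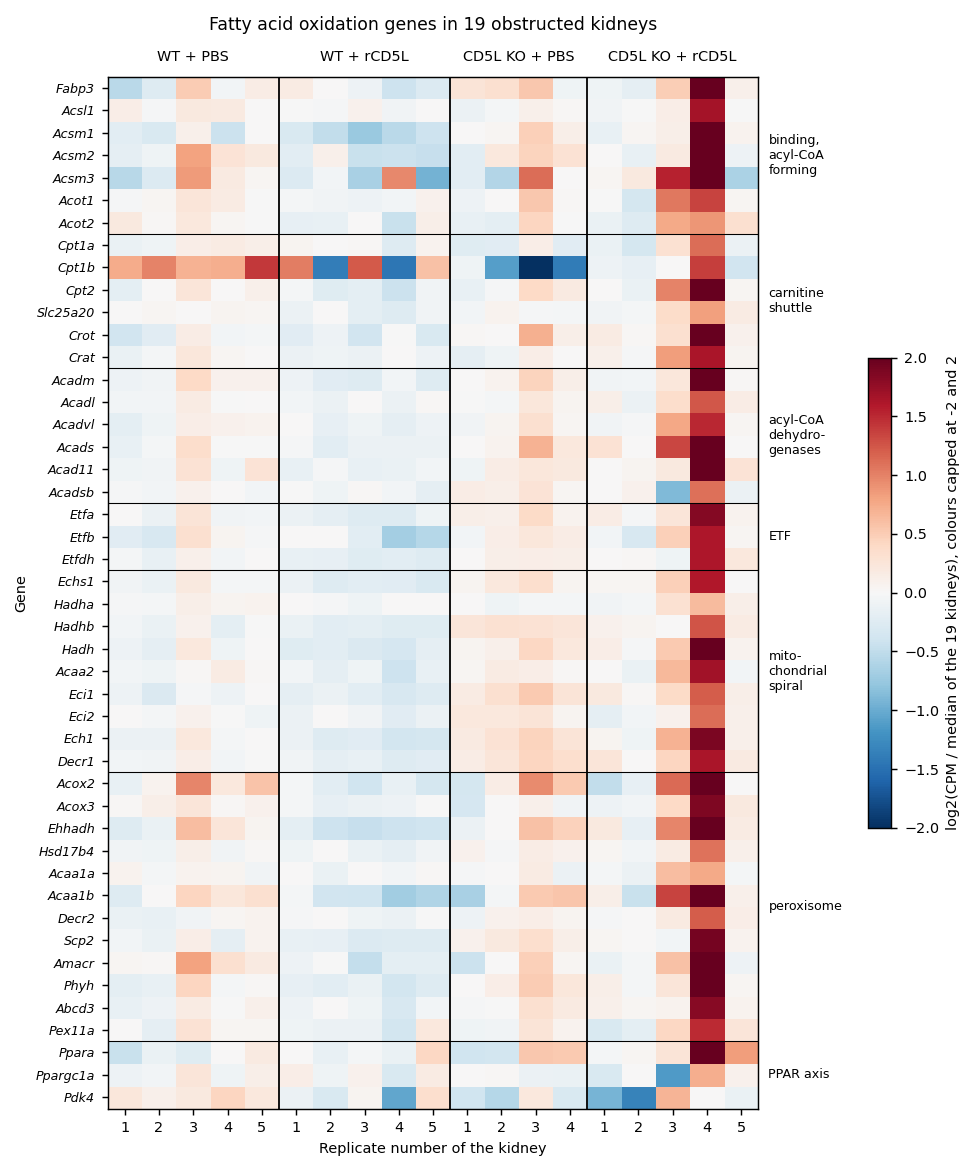
Each row is 1 of the 46 genes, grouped by role, each column 1 kidney labelled with its replicate number, and colours give log2 of CPM over the median of the 19 kidneys, capped at -2 and 2. Red marks values above that median and blue values below it. Replicate 4 in CD5L KO + rCD5L is the highest of the row for 44 genes, and most cells of the WT + rCD5L columns are pale blue.

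A level for the whole group of genes was taken per kidney as the median over the 46 genes of log2 CPM over the median of the 19 kidneys. It was -0.10, -0.08, 0.20, 0.02 and 0.03 in replicates 1 to 5 of WT mice given PBS, and -0.09, -0.14, -0.14, -0.25 and -0.11 in WT mice given rCD5L. The knockout kidneys had -0.03, 0.05, 0.33 and 0.06 with PBS and 0.00, -0.04, 0.37, 1.65 and 0.07 with rCD5L. The rCD5L-treated WT kidneys lay below all 9 knockout kidneys and overlapped the PBS-treated WT kidneys by 1 kidney, replicate 1 in both groups (-0.0948 with rCD5L and -0.0955 with PBS). The other 3 groups overlapped one another, with replicate 4 of CD5L KO mice given rCD5L above all. In 3 of the 4 groups, the kidney with the highest level also had the highest sum of proximal tubule markers. The exception was WT mice given rCD5L.

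**Figure D3:**
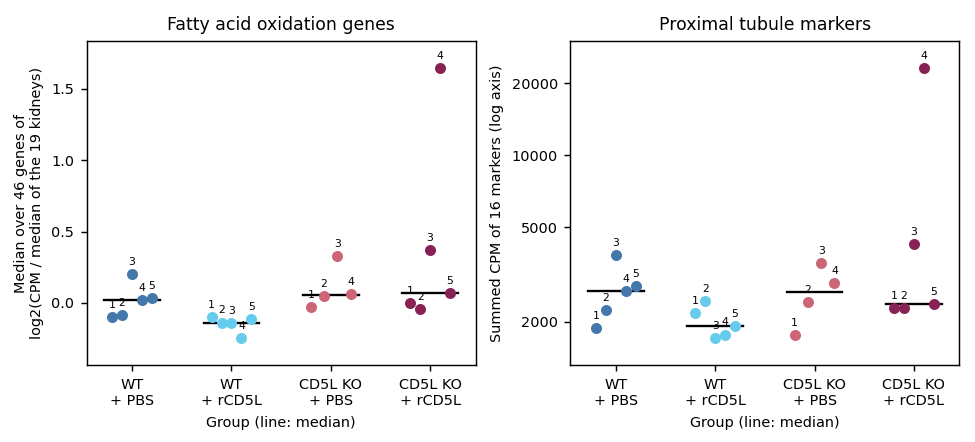
Left, the median over the 46 genes of log2 CPM over the median of the 19 kidneys, and right, the summed CPM of 16 proximal tubule markers on a log axis. Points are kidneys labelled with their replicate number and lines are group medians, and replicate 4 of CD5L KO + rCD5L is the highest kidney in both panels, at 1.65 on the left.

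The first comparison asked what loss of CD5L did in obstructed kidneys without treatment. Of all 17579 genes tested by edgeR, 10.5% passed an adjusted p of 0.05, 5.13% higher and 5.4% lower. The 6 fatty acid oxidation genes that passed were near that share, so they do not set this group of genes apart. Under PBS, 4 enzymes of the later mitochondrial steps rose in CD5L KO kidneys: Eci1, Hadhb, Decr1 and Ech1, each by 0.29 to 0.41 on the log2 scale. Pdk4, the kinase that holds pyruvate dehydrogenase off, and Cpt1b fell. The other 40 genes did not pass an adjusted p of 0.05 (edgeR's quasi-likelihood test, adjusted by Benjamini-Hochberg). The carnitine shuttle apart from Cpt1b, the acyl-CoA dehydrogenases, the electron transfer flavoproteins and the peroxisomal genes held no such gene in this test. Other settings did call genes of these roles, among them Cpt1a without replicate 3 of CD5L KO, the peroxisomal Scp2 without replicate 3 of WT and the dehydrogenase gene Acadsb with an offset for gene length.

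Eci1 (ENSMUSG00000024132, chromosome 17, 24426683 to 24439316, GRCm38) encodes the mitochondrial enoyl-CoA isomerase that moves double bonds of unsaturated chains. It had 65.2, 72.7, 83.6 and 69.7 CPM in the 4 CD5L KO kidneys and 54.3, 47.6, 57.2, 54.3 and 58.5 CPM in the 5 WT kidneys. The genotypes did not overlap, CD5L KO being higher, with a log2 fold change of 0.41 (SE 0.08, adjusted p = 0.00867). Decr1 (ENSMUSG00000028223, chromosome 4, 15917240 to 15945507), the 2,4-dienoyl-CoA reductase of the same route, had 135, 144, 165 and 154 CPM in CD5L KO and 118, 116, 133, 118 and 121 CPM in WT kidneys. These groups did not overlap either, with a log2 fold change of 0.29 (SE 0.07, adjusted p = 0.0162). Ech1 (ENSMUSG00000053898, chromosome 7, 28825217 to 28832247), a dienoyl-CoA isomerase, had 227, 247, 274 and 242 CPM in CD5L KO kidneys and 186, 186, 234, 196 and 201 CPM in WT kidneys. The lowest CD5L KO kidney lay below the highest WT kidney, and the log2 fold change was 0.29 (SE 0.08, adjusted p = 0.0302).

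Hadhb (ENSMUSG00000059447, chromosome 5, 30155248 to 30184593) encodes the thiolase subunit of the trifunctional protein, whose other subunit comes from Hadha. Hadhb had 144, 151, 148 and 144 CPM in CD5L KO kidneys and 117, 111, 128, 106 and 121 CPM in WT kidneys, with no overlap and a log2 fold change of 0.33 (SE 0.06, adjusted p = 0.00772). Hadha, which starts on the opposite strand of the shared window printed above, had 229, 214, 222 and 222 CPM in CD5L KO kidneys and 224, 221, 246, 238 and 239 CPM in WT kidneys. The Hadha groups overlapped, with a log2 fold change of -0.08 (SE 0.05, adjusted p = 0.324). The difference between the changes of both subunits was not tested. Of all 100-base windows of Hadhb transcripts, 14.8% also occur in the pseudogene Gm13910, and how reads matching both were counted is not given in the sources used here.

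Of the 9 mitochondrial enzymes after the acyl-CoA dehydrogenases, 8 had a higher estimate in CD5L KO kidneys, with a median log2 fold change of 0.22, and 4 passed the test. Of the rest, Eci2 had 0.19 (SE 0.06, adjusted p = 0.0502), Hadh had 0.22 (SE 0.09, adjusted p = 0.128) and Echs1 had 0.17 (SE 0.08, adjusted p = 0.163), which did not pass. Over all 46 genes, 31 had a higher estimate, with a median of 0.08 against -0.0046 for all 17579 genes tested, of which 49.3% were higher. The median moved between 0.0098 (24 of 46 higher), without replicate 3 of CD5L KO, and 0.15, without replicate 1 of CD5L KO. The share of genes with an adjusted p under 0.05 was 10.5% of all genes, 5.13% higher and 5.4% lower, so 6 of 46 is near the share of the whole table. The kidneys of both genotypes did not overlap, with CD5L KO higher, for 7.35% of all genes and for 3 of the 46, Eci1, Hadhb and Decr1.

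Pdk4 (ENSMUSG00000019577, chromosome 6, 5483351 to 5496309), a target of PPAR-alpha, had 82.0, 73.3, 125 and 87.4 CPM in CD5L KO kidneys and 127, 116, 124, 147 and 126 CPM in WT kidneys. Only replicate 3 of CD5L KO reached the WT range, and the log2 fold change was -0.48 (SE 0.13, adjusted p = 0.0345). Cpt1b (ENSMUSG00000078937, chromosome 15, 89416405 to 89425863) had 6, 3, 1 and 2 counts in CD5L KO kidneys and 11, 14, 10, 9 and 17 counts in WT kidneys. These groups did not overlap, with a log2 fold change of -1.96 (SE 0.44, adjusted p = 0.0162), but the counts are few, and 75.6% of the 100-base windows of Cpt1b transcripts also occur in the overlapping gene Gm44502, which had 0 counts. DESeq2 gave no adjusted p for Cpt1b. Eci1, Hadhb and Decr1 kept an adjusted p under 0.05 whichever of the 9 kidneys was left out, while Ech1 kept it in 2 of 9 cases (without replicate 1 of CD5L KO or replicate 3 of WT), and Pdk4 in 2 (without replicate 3 of CD5L KO or of WT). Over the 9 cases the adjusted p (edgeR) ran from 0.00725 to 0.0762 for Ech1 and from 0.0113 to 0.0938 for Pdk4.

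**Figure D4:**
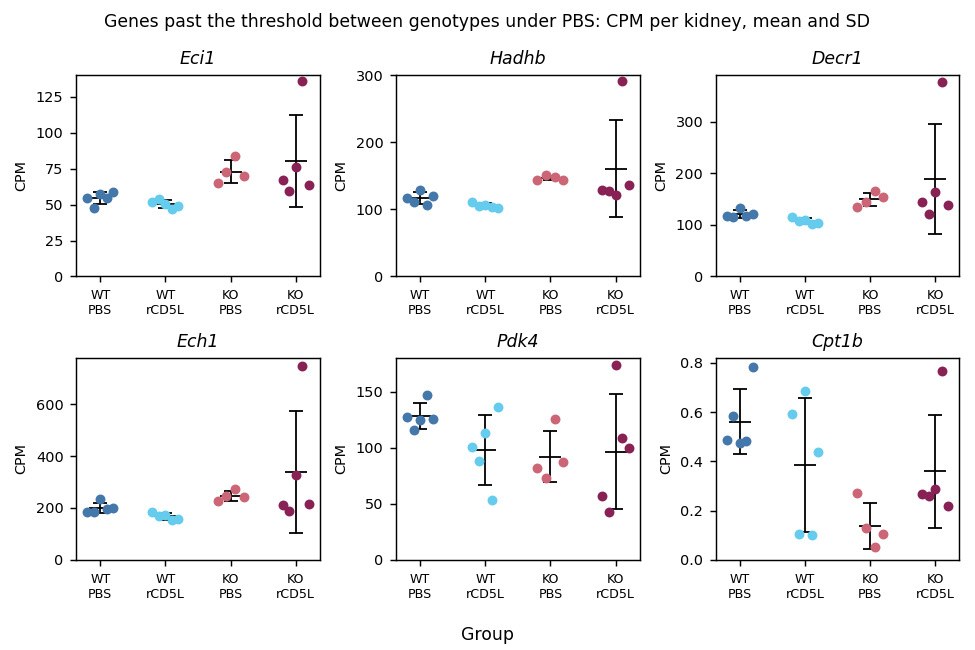
CPM per kidney (points), mean and SD (bars) in the 4 groups for the 6 genes past the threshold between genotypes under PBS. The 4 KO + PBS points lie above the 5 WT + PBS points for Eci1, Hadhb and Decr1 and below them for Cpt1b, and the highest KO + rCD5L point in each panel is replicate 4 except for Pdk4, where it is replicate 3.

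Cpt1a, Cpt2, Acadm and Acadvl did not pass the test with all 9 kidneys. Cpt1a (ENSMUSG00000024900, chromosome 19, 3323301 to 3385732) had 288, 293, 376 and 293 CPM in CD5L KO and 312, 322, 377, 384 and 369.6 CPM in WT kidneys, giving a log2 fold change of -0.18 (SE 0.09, adjusted p = 0.223). Replicate 3 was the highest CD5L KO kidney, and without it Cpt1a had an adjusted p of 0.0486. Cpt2, which rebuilds acyl-CoA inside mitochondria, had 66.7, 72.3, 97.7 and 83.8 CPM and 64.7, 73.8, 87.2, 74.3 and 79.3 CPM, a log2 fold change of 0.07 (SE 0.11, adjusted p = 0.727), with overlap. The medium-chain dehydrogenase Acadm had 211, 221, 288 and 228 CPM in CD5L KO and 196, 202, 278, 223 and 224 CPM in WT kidneys, giving a log2 fold change of 0.07 (SE 0.11, adjusted p = 0.733). In both genotypes replicate 3 was the highest for Acadm. Acadvl, the very-long-chain dehydrogenase, had 80.7, 88.0, 105 and 87.5 CPM and 74.3, 80.3, 92.8, 89.8 and 88.9 CPM, a log2 fold change of 0.08 (SE 0.08, adjusted p = 0.602).

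Ehhadh, the bifunctional peroxisomal enzyme, had 136, 147, 221 and 201 CPM in CD5L KO kidneys and 123, 134, 226, 173 and 153 CPM in WT kidneys, giving a log2 fold change of 0.12 (SE 0.18, adjusted p = 0.732). Ppara itself had 7.85, 8.05, 15.1 and 14.9 CPM and 7.61, 9.45, 8.80, 10.4 and 11.8 CPM, a log2 fold change of 0.25 (SE 0.21, adjusted p = 0.498). Both genes overlapped between the genotypes. By role, the log2 fold changes ran from -0.11 to 0.32 for the 7 genes of acyl-CoA formation or cleavage, from 0.05 to 0.22 for the 6 dehydrogenases, from 0.11 to 0.15 for the 3 electron transfer genes and from -0.25 to 0.21 for the 12 peroxisomal genes, of which 7 were higher. Within the carnitine shuttle they ran from -1.96 for Cpt1b to 0.34 for Crot.

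Cell type markers moved with the genotype as well. Of 16 proximal tubule markers, 8 had a higher estimate and 0 passed edgeR's test (2 at an unadjusted p under 0.05), with a median log2 fold change of -0.01 and summed levels of 1758 to 3532 CPM in CD5L KO and 1881 to 3814 CPM in WT kidneys. Of 7 fibroblast markers, 6 fell in CD5L KO kidneys (median -0.61), with summed levels of 3345 to 4551 CPM against 4774 to 7217 CPM. Endothelial markers fell in 3 of 5 cases, podocyte markers in 1 of 5 and macrophage markers in 1 of 6, and 2 of 12 mitochondrially encoded mRNAs rose, with a higher estimate for all 12. Urothelial markers had higher estimates in 4 of 4 cases (median 0.81, 0 past edgeR's test, 1 at an unadjusted p under 0.05), with summed levels of 139 to 235 CPM in CD5L KO and 16.2 to 125 CPM in WT kidneys, which do not overlap. Injured tubule markers had higher estimates in 6 of 6 cases (median 0.11, 0 past edgeR's test, 1 at an unadjusted p under 0.05), with summed levels of 2006 to 2261 CPM and 1713 to 2072 CPM, which overlap. The part of such shifts in the 6 genes was not tested.

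A further 81 genes of fatty acid handling outside the 46 were read beside them, and 77 passed the filter on low counts. Of these, 5 rose and 1 fell in CD5L KO kidneys, that is 6 of 77, beside 10.5% of all genes. Acot13, a mitochondrial thioesterase, rose by 0.34 (SE 0.08, adjusted p = 0.0183), and the omega-hydroxylase Cyp4a12a by 1.13 (SE 0.31, adjusted p = 0.0357). The fatty acid transporter Cd36 rose by 0.42 (SE 0.10, adjusted p = 0.0191), Fabp4 by 0.49 (SE 0.13, adjusted p = 0.0338) and the lipid droplet protein Plin2 by 0.23 (SE 0.06, adjusted p = 0.0361). Lpin1, a phosphatidate phosphatase and PPAR-alpha coactivator, fell, with a log2 fold change of -0.51 (SE 0.09, adjusted p = 0.0072). All of these are log2 fold changes from edgeR's quasi-likelihood test, adjusted by Benjamini-Hochberg. Fabp4 and Cd36 are also made by adipocytes and endothelium. The 6 adipocyte markers all had higher estimates in CD5L KO kidneys (median 0.83, 0 past the test, 3 at an unadjusted p under 0.05), and their part in those 2 genes was not tested.

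Leaving out replicate 1 or 2 of WT mice given PBS left 3 genes past the threshold, beside 9.94% and 6.44% of all genes, and Cpt1b did not pass the filter on low counts in either case. Leaving out replicate 3 of WT gave 11 genes, beside 11.8% of all genes. A fit of all 19 kidneys with 1 shared spread called 0 of the 46 (2 at an unadjusted p under 0.05), and an offset for gene length took Eci1 (adjusted p = 0.0543) and Ech1 (adjusted p = 0.0778) past 0.05 (edgeR).

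Genotypes were then compared among rCD5L-treated mice, in kidneys that the comparison under PBS had not used. The 4 enzymes that rose under PBS again lay higher in CD5L KO kidneys. None of them overlapped between the genotypes, beside 4.62% of all genes with no overlap and CD5L KO higher. However, edgeR's test of these 10 kidneys alone called no gene of the table. Of the 45 genes tested, 43 had a higher estimate in CD5L KO kidneys, with a median log2 fold change of 0.76 against -0.01 for all genes, of which 48.9% were higher. Without replicate 4, 40 of 45 did, with a median of 0.26. Without replicates 3 and 4, a setting added after seeing the data, 38 of 46 did, with a median of 0.13. In that setting 11 of the 46 genes passed the test, each higher, beside 1.62% of 18012 genes that passed as higher.

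Eci1 had 67.1, 59.2, 76.0, 136 and 63.4 CPM in replicates 1 to 5 of CD5L KO mice and 51.7, 53.8, 50.6, 47.1 and 49.1 CPM in WT mice given rCD5L. Every CD5L KO kidney was above every WT kidney. The log2 fold change was 0.65 (SE 0.21, adjusted p = 0.259) in all kidneys, 0.37 (SE 0.09, adjusted p = 0.144) without replicate 4 and 0.31 (SE 0.06, adjusted p = 0.0268) without replicates 3 and 4. Hadhb had 129, 127, 122, 291 and 136 CPM and 111, 106, 107, 103 and 103 CPM, again without overlap. Its log2 fold change was 0.58 (SE 0.23, adjusted p = 0.259), and 0.29 (SE 0.05, adjusted p = 0.0209) without replicates 3 and 4. Decr1 had 143, 122, 164, 376 and 138 CPM and 116, 107, 109.5, 102 and 104 CPM, and Ech1 had 210.0, 189, 326, 746 and 217 CPM and 186, 168, 172, 155 and 157 CPM. Neither overlapped, and without replicates 3 and 4 the log2 fold changes were 0.31 (SE 0.07, adjusted p = 0.032) for Decr1 and 0.28 (SE 0.07, adjusted p = 0.0479) for Ech1. Over all 5 kidneys they were 0.79 (SE 0.28, adjusted p = 0.259) and 0.99 (SE 0.34, adjusted p = 0.259) (edgeR's quasi-likelihood test, adjusted by Benjamini-Hochberg).

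The kidneys of both genotypes did not overlap for 16 of the 46 genes, with CD5L KO higher, against 4.62% of all genes tested. They were Acsm1, Crot, Acads, Acad11, Etfa, Etfdh, Echs1, Hadhb, Hadh, Eci1, Ech1, Decr1, Ehhadh, Scp2, Phyh and Abcd3. The 11 genes past the threshold without replicates 3 and 4, where 1.62% of 18012 genes were higher, were Acsm1, Etfdh, Echs1, Hadhb, Hadh, Eci1, Ech1, Decr1, Ehhadh, Scp2 and Phyh. Thus 6 of the 11 are mitochondrial enzymes after the dehydrogenases and 3 are peroxisomal. With all kidneys, 29 of 45 genes had an unadjusted p under 0.05, against 17.8% of all genes, and edgeR's test passed 0% (0 of 17360). DESeq2 called 64 genes, 0 of them among the 46, and limma on FPKM called 0. A fit of all 19 kidneys with 1 shared spread called 11 of the 46, each higher, where 5.03% of 18454 genes were higher.

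Ehhadh had 168, 132, 288, 1478 and 164 CPM in CD5L KO mice and 129, 110.2, 107, 110.3 and 112 CPM in WT mice, without overlap, and a log2 fold change of 1.95 (SE 0.62, adjusted p = 0.259). Without replicate 4 it was 0.70 (SE 0.18, adjusted p = 0.162), and 0.43 (SE 0.08, adjusted p = 0.0239) without replicates 3 and 4. Acaa1b, a peroxisomal thiolase, had 65.6, 44.1, 153, 473 and 64.6 CPM and 58.5, 46.2, 45.9, 37.1 and 39.8 CPM, with 1 CD5L KO kidney inside the WT range. Its log2 fold change was 1.79 (SE 0.57, adjusted p = 0.259), and 0.34 (SE 0.15, adjusted p = 0.198) without replicates 3 and 4. For Cpt1a, the sign depended on the 2 kidneys, with 0.26 (SE 0.25, adjusted p = 0.576) in all and -0.19 (SE 0.08, adjusted p = 0.194) without them. The Cpt1a levels were 314, 269, 421, 744 and 316 CPM in CD5L KO and 357, 342, 349.8, 287 and 359.6 CPM in WT kidneys.

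Cpt2 had 73.8, 67.6, 148, 299 and 75.5 CPM in CD5L KO kidneys and 71.8, 62.6, 64.6, 55.1 and 70.4 CPM in WT kidneys, giving a log2 fold change of 1 (SE 0.38, adjusted p = 0.259). Acadm had 202, 203, 246, 1329 and 215 CPM and 197, 181, 177, 202 and 176 CPM, a log2 fold change of 1.21 (SE 0.52, adjusted p = 0.267). In both genes replicate 4 was far above the rest of its group. Without replicates 3 and 4 the estimates by edgeR were 0.14 (SE 0.08, adjusted p = 0.338) for Cpt2 and 0.13 (SE 0.06, adjusted p = 0.253) for Acadm. Acadvl had 80.8, 83.1, 145, 242 and 87.4 CPM and 84.8, 75.7, 80.0, 75.0 and 79.4 CPM, a log2 fold change of 0.67 (SE 0.28, adjusted p = 0.264). For Acadvl the estimate by edgeR without replicates 3 and 4 was 0.07 (SE 0.06, adjusted p = 0.531). Hadha had 218, 222, 281, 355 and 248 CPM and 229, 225, 215, 229 and 228 CPM, a log2 fold change of 0.21 (SE 0.14, adjusted p = 0.421), and 0.01 (SE 0.06, adjusted p = 0.933) without replicates 3 and 4. Unlike Hadhb, Hadha overlapped between the genotypes.

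Ppara had 10.1, 10.7, 12.5, 57.0 and 18.5 CPM in CD5L KO and 10.4, 9.37, 10.1, 9.47 and 13.7 CPM in WT kidneys, giving a log2 fold change of 1 (SE 0.45, adjusted p = 0.274), with overlap. Pdk4 had 56.8, 43.0, 173, 108 and 99.4 CPM and 100.1, 87.7, 113, 53.0 and 137 CPM, a log2 fold change of -0.06 (SE 0.35, adjusted p = 0.938), also with overlap. Without replicates 3 and 4 the estimates by edgeR were 0.29 (SE 0.20, adjusted p = 0.431) for Ppara and -0.58 (SE 0.28, adjusted p = 0.250) for Pdk4. All 16 proximal tubule markers had higher estimates in CD5L KO kidneys in this comparison, with a median of 1.68, and 13 of 16 with a median of 0.17 without replicates 3 and 4, when 4 of them rose (edgeR). The 12 mitochondrially encoded mRNAs tested were all higher (median 1.17), and 10 of 12 without those kidneys (median 0.20, 1 past the test). Fibroblast markers had lower estimates in 7 of 7 cases (median -0.44), and in 6 of 7 without those kidneys (median -0.45, 1 past the test). Endothelial markers were lower in 4 of 5 cases (median -0.25), and again in 4 of 5 without those kidneys (median -0.30, 3 past the test). All 5 podocyte markers were lower (median -0.38, and -0.21 without those kidneys). With all kidneys, adipocyte markers had higher estimates, from 0.62 (Lep) to 1.10 (Cfd). Macrophage markers had lower ones, from -0.46 (Csf1r) to -0.02 (C1qb). The 4 hepatocyte markers were all higher (median 0.99), and 3 of 4 without those kidneys (median 0.17). The part of these shifts in the fatty acid oxidation genes was not tested.

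In CD5L KO mice, rCD5L was compared with PBS to ask what giving back the protein did. No fatty acid oxidation gene passed the test, and the direction of the group of genes hung on replicates 3 and 4. With all 9 kidneys, 45 of 45 genes tested had a higher estimate with rCD5L (median log2 fold change 0.46, against 0.02 for all genes, of which 53.5% were higher). Without replicate 4, 23 of 45 were higher, with a median of 0.01. Without replicates 3 and 4, 6 of 45 were higher, with a median of -0.15.

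The genes with the smallest unadjusted p were Acsm3, Crat and Ehhadh. Acsm3 had 30.2, 23.3, 76.3 and 35.1 CPM with PBS and 35.8, 40.2, 102, 804 and 22.5 CPM with rCD5L, a log2 fold change of 2.27 (SE 1.04, unadjusted p = 0.0526, adjusted p = 0.897). The rCD5L kidneys held both the lowest and the highest value. Crat, which makes acetylcarnitine, had 63.0, 67.4, 78.3 and 71.8 CPM with PBS and 76.7, 70.2, 127, 220.3 and 74.1 CPM with rCD5L, a log2 fold change of 0.68 (SE 0.32, unadjusted p = 0.0602, adjusted p = 0.897). Replicates 3 and 4 were the only ones above the PBS range for Crat. Ehhadh had a mean of 446 ± 580.0 CPM (SD, n = 5) with rCD5L and 176 ± 41.4 CPM (SD, n = 4) with PBS, giving a log2 fold change of 1.32 (SE 0.70, unadjusted p = 0.0856, adjusted p = 0.897) by edgeR's quasi-likelihood test. Without replicates 3 and 4, the 3 estimates were -0.32 (SE 0.35, adjusted p = 0.806), 0.07 (SE 0.08, adjusted p = 0.801) and -0.19 (SE 0.16, adjusted p = 0.752), in the same order.

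Among the genes followed by role, the log2 fold changes with all kidneys and without replicates 3 and 4 were 0.39 and -0.06 for Cpt1a, 0.71 and -0.14 for Cpt2, and 0.87 and -0.20 for Acadm. They were 0.48 and -0.11 for Acadvl, 0.25 and 0.05 for Hadha, 0.90 and 0.20 for Ppara, and 0.05 and -0.47 for Pdk4. Only Hadha and Ppara kept a positive estimate among these 7. Of the 4 enzymes higher in CD5L KO kidneys under PBS, the estimates without replicates 3 and 4 were -0.20 (SE 0.09, adjusted p = 0.494) for Eci1, -0.17 (SE 0.06, adjusted p = 0.435) for Hadhb, -0.15 (SE 0.09, adjusted p = 0.611) for Decr1 and -0.26 (SE 0.08, adjusted p = 0.397) for Ech1 by edgeR. These 4 genes share the PBS-treated CD5L KO kidneys with the genotype comparison in which they were picked out, so these are not independent values.

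The common coefficient of variation of the fit was 28.8%, 18.9% without replicate 4 and 12.7% without replicates 3 and 4, where edgeR again called 0 genes (1726 at an unadjusted p under 0.05, 6 of them among the 45). With all 9 kidneys edgeR's quasi-likelihood test, adjusted by Benjamini-Hochberg, passed 0% of 17467 genes, 2.87% had an unadjusted p under 0.05 (none of the 45), DESeq2 called 3 genes, 0 of them among the 46, and limma on FPKM called 0. The 16 proximal tubule markers had higher estimates in 16 of 16 cases with all kidneys (median 1.24), in 11 of 16 without replicate 4 (median 0.07) and in 2 of 16 without replicates 3 and 4 (median -0.17). Mitochondrially encoded mRNAs were higher in 13 of 13 cases (median 0.57), and in 0 of 12 without replicates 3 and 4 (median -0.34, 10 at an unadjusted p under 0.05). The 3 epididymis markers tested were higher with all kidneys (median 1.35) and without replicates 3 and 4 (median 0.97). The part of these in the gene estimates was not tested.

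**Figure D5:**
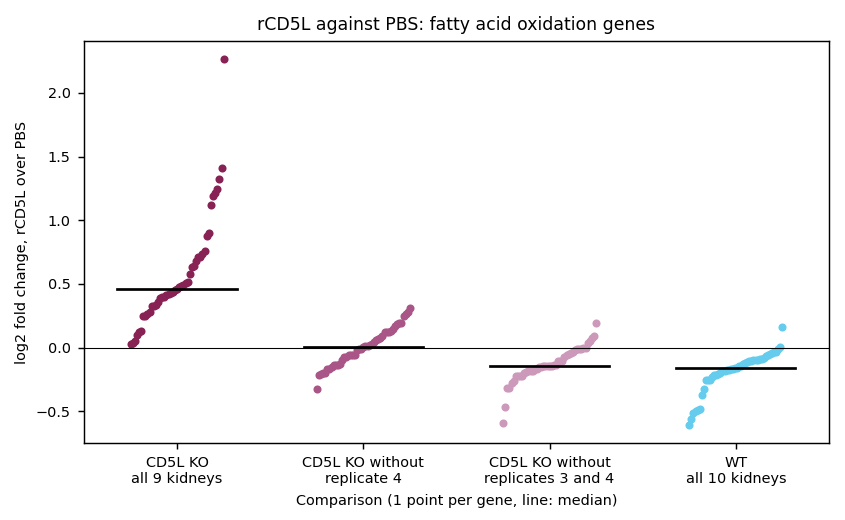
Log2 fold change of rCD5L over PBS for each fatty acid oxidation gene (points) and the median (line), in CD5L KO mice with all kidneys, without replicate 4 and without replicates 3 and 4, and in WT mice. The medians are 0.46, 0.01, -0.15 and -0.16.

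In WT mice, most fatty acid oxidation genes had slightly lower estimates with rCD5L than with PBS, and none passed edgeR's test. Of the 46 genes, 44 had a lower estimate, with a median log2 fold change of -0.16 against 0.0046 for all genes, of which 48.7% were lower. An unadjusted p under 0.05 was reached by 21 of the 46, each lower, against 16% of all genes in either direction. The smallest adjusted p among them was 0.107 (edgeR's quasi-likelihood test, adjusted by Benjamini-Hochberg), and 0% of 17455 genes passed. DESeq2 called 508 genes, among them Ech1, Acaa1b, Amacr, Etfdh and Acox2, each lower, edgeR without the filter on low counts called 137, among them Ehhadh, Acaa1b and Amacr, and limma on FPKM called 0.

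The genes with the smallest p were peroxisomal. Acaa1b had 50.4, 60.2, 81.3, 70.8 and 75.2 CPM with PBS and 58.5, 46.2, 45.9, 37.1 and 39.8 CPM with rCD5L, a log2 fold change of -0.56 (SE 0.13, unadjusted p = 0.00082, adjusted p = 0.107). Replicate 1 of the rCD5L group alone reached the PBS range. Without replicate 1 of WT mice given PBS, the adjusted p of Acaa1b was 0.0433, the only call that leaving out a kidney gave. Ehhadh had 123, 134, 226, 173 and 153 CPM with PBS and 129, 110.2, 107, 110.3 and 112 CPM with rCD5L, a log2 fold change of -0.50 (SE 0.13, unadjusted p = 0.00171, adjusted p = 0.118). Replicate 1 with rCD5L lay above the lowest PBS kidney. Amacr, which inverts methyl-branched acyl-CoA, had 55.0, 54.4, 93.4, 67.1 and 61.0 CPM with PBS and 49.8, 53.6, 38.3, 46.9 and 46.9 CPM with rCD5L, a log2 fold change of -0.48 (SE 0.13, unadjusted p = 0.0027, adjusted p = 0.121) by edgeR's quasi-likelihood test, with no overlap.

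Acox2, the branched-chain acyl-CoA oxidase, had the lowest estimate, -0.61 (SE 0.17, adjusted p = 0.123), and Acsm2 had -0.51 (SE 0.16, adjusted p = 0.152). Of the mitochondrial genes, the 9 enzymes after the dehydrogenases were all lower, with a median of -0.16 and 6 at an unadjusted p under 0.05, and the 6 dehydrogenases had a median of -0.12. The peroxisomal genes had a median of -0.18, with 11 of 12 lower and 7 at an unadjusted p under 0.05. The difference between roles was not tested. In 7 genes every rCD5L kidney lay below every PBS kidney, namely Slc25a20, Etfdh, Hadh, Ech1, Decr1, Acox3 and Amacr, against 1.91% of all genes.

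Cpt1a, the gatekeeper of the carnitine shuttle, had 353 ± 33.3 CPM with PBS and 339 ± 29.9 CPM with rCD5L (SD, n = 5 each), a log2 fold change of -0.05 (SE 0.08, adjusted p = 0.808) by edgeR. The estimates were -0.21 (SE 0.08, adjusted p = 0.227) for Cpt2, -0.26 (SE 0.08, adjusted p = 0.165) for Acadm and -0.10 (SE 0.06, adjusted p = 0.469) for Acadvl by edgeR. They were -0.04 (SE 0.05, adjusted p = 0.693) for Hadha, -0.37 (SE 0.18, adjusted p = 0.317) for Pdk4 and 0.16 (SE 0.14, adjusted p = 0.6) for Ppara by edgeR. Ppara and Decr2 were the only genes of the 46 with a higher estimate.

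Proximal tubule markers also had lower estimates with rCD5L, in 16 of 16 cases, with a median of -0.37, 10 at an unadjusted p under 0.05 and 0 past the adjusted threshold by edgeR. The summed level was 1881 to 3814 CPM with PBS and 1706 to 2459 CPM with rCD5L, which overlap. Mitochondrially encoded mRNAs were lower in 11 of 12 cases (median -0.23), and the 5 T cell markers had higher estimates (median 0.59). The 3 epididymis markers tested were higher (median 0.81), each at an unadjusted p under 0.05. Endothelial markers were lower in 4 of 5 cases (median -0.15, 3 at an unadjusted p under 0.05) and hepatocyte markers in 4 of 4 (median -0.16, 1 at an unadjusted p under 0.05). Injured tubule markers were higher in 4 of 6 cases (median 0.04), 1 of them at an unadjusted p under 0.05. Fibroblast markers were higher in 5 of 7 cases (median 0.15), and the 1 marker with an unadjusted p under 0.05, Acta2, was lower (-0.42). The part of these in the fatty acid oxidation genes was not tested. Among the 77 other fatty acid genes tested, 62 had a lower estimate, with a median of -0.15, and the 8 omega oxidation genes were all lower, with a median of -0.49.

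Whether rCD5L acted differently in the 2 genotypes was tested as an interaction over all 19 kidneys. All 46 genes had a positive estimate, that is a higher rCD5L effect in CD5L KO than in WT mice, with a median of 0.64 on the log2 scale. Of all genes, 53% were positive. None of the 46 passed an adjusted p of 0.05 (smallest 0.731 by edgeR's quasi-likelihood test), 12 had an unadjusted p under 0.05 against 6.25% of 18454 genes, and DESeq2 also called 0. Without replicate 4 of CD5L KO mice given rCD5L, 39 of 46 were positive, with a median of 0.17. Without replicates 3 and 4, 31 were positive, with a median of 0.04. The 16 proximal tubule markers were also all positive in the interaction (0.77 to 3.05, median 1.59), 14 of 16 without replicate 4 (median 0.36) and 14 of 16 without replicates 3 and 4 (median 0.22). The 13 mitochondrially encoded mRNAs were all positive (0.64 to 1.39, median 0.87), 8 of 13 without replicate 4 and 2 of 13 without replicates 3 and 4. The part of these in the interaction of the 46 genes was not tested.

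Pairs of near-identical genes need care, since reads can fall in either copy. Acaa1a and Acaa1b, both peroxisomal thiolases, share 7.21% and 19.3% of their 100-base windows with each other. Acaa1a had 142 ± 6.74 CPM with PBS and 137 ± 5.68 CPM with rCD5L in WT mice (SD, n = 5 each), a log2 fold change of -0.04 (SE 0.05, adjusted p = 0.762) by edgeR, where Acaa1b had -0.56 (SE 0.13, adjusted p = 0.107). Acot1 and Acot2, the cytosolic and mitochondrial thioesterases, share 9.32% and 17.1%. Under PBS their log2 fold changes between genotypes were 0.04 (SE 0.11, adjusted p = 0.852) and -0.07 (SE 0.12, adjusted p = 0.757) by edgeR. Etfb (35.8% with Gm45233), Fabp3 (21.7% with Fabp3-ps1) and Scp2 (21.8% with Scp2-ps2) also have copies. Several of the 46 overlap another gene, for example Acadvl with Dvl2, and the strand setting of the counting is not given in the sources used here, so counts there are less certain.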

How the data were processed

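RNA-seq was done on 19 obstructed kidneys in 4 groups, taken from the sample labels. The authors deposited raw counts per gene, and per the labels Trimmomatic, HISAT2 and featureCounts served for trimming, alignment to GRCm38 and counting (versions not given in the sources used here). The authors also deposited FPKM values, scaled by gene length, which gave levels between genes and an alternative test. The number of table columns without a sample was 0.

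Counts were scaled with TMM, filtered (filterByExpr, minimum count 10) and tested with edgeR 4.0.16 in R 4.3.3 by the quasi-likelihood test, only the 2 groups compared entering a fit (all 4 for the interaction). Calls were adjusted p-values under 0.05 by Benjamini-Hochberg over all genes tested. SE is the absolute log2 fold change over the root of the F statistic. Scripts were tested on simulated data. Among 36 pairs of kidneys of the same group, chi-square per degree of freedom was 7.07 to 351, so each kidney was a separate sample. Total counts were 17917491 to 23847090, and limits from a count of 0 cover counting error only.

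The genes, lists and rules were chosen with earlier results of these data known. Values in every kidney are given for up to 5 genes higher and 5 lower past the threshold per comparison, otherwise for the 3 with the smallest p, and for 8 fixed genes: Cpt1a, Cpt2, Acadm, Acadvl, Hadha, Ehhadh, Ppara and Pdk4. Other fatty acid genes were named when past the threshold, at most 3 per list. Genes singled out beside these were chosen after their values were seen.

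Alternatives were DESeq2 1.42.0, limma 3.58.1 on log2 of FPKM plus 1 or 0.1, a gene length offset (lowess span 0.3), a block for the replicate number, 1 fit of all kidneys, RLE scaling, a stricter filter (10 counts in each sample) or none, and leaving out each replicate. Leaving out replicates 3 and 4 of CD5L KO mice given rCD5L together was added after seeing the data. Shared 100-base windows came from the transcripts of the GRCm38 annotation.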

Additional observations from a re-analysis of the deposited data

Results flagged for a closer look

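In groups of 4 or 5 kidneys, the gap between the farthest kidney and its nearest neighbour, divided by the range of the group, was set against Dixon's 95% critical value. Over 17 genes and the median level of the 46, 72 groups were tested and 18 exceeded it. Chance gives about 1 in 20 for independent tests, but these genes were read in the same kidneys and are not independent. Of the 18, 12 were replicate 4 of CD5L KO mice given rCD5L. There the ratio was 0.898 for Acsm3, 0.873 for Cpt1b, 0.961 for Acadm, 0.915 for Hadhb, 0.78 for Eci1, 0.755 for Ech1 and 0.835 for Decr1. It was 0.884 for Ehhadh, 0.745 for Acaa1b, 0.92 for Amacr, 0.82 for Ppara and 0.754 for the median level of the 46 genes. In Acadm, for example, that kidney had 1329 CPM where the others of its group had 202 to 246 CPM.

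In CD5L KO mice given PBS, Cpt1a was far highest in replicate 3 (0.943). In WT mice given rCD5L, replicate 4 was far lowest for Cpt1a (0.763) and for the median level of the 46 genes (0.724), and far highest for Crat (0.812). In the same group, replicate 1 was far highest for Ehhadh (0.778) and replicate 5 for Ppara (0.754).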

How the results depend on the processing

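Between genotypes under PBS, 6 of the 46 genes passed the threshold in the main test, 0 with all 19 samples in 1 fit (edgeR, 2 at an unadjusted p under 0.05) and 3 with limma on FPKM plus 1 without a filter, beside 10.5%, 0.065% and 3.06% of all genes. DESeq2 gave 6 (17.8% of all genes with an adjusted p), of which 5 were shared with the main test. Leaving out 1 kidney gave 3 to 11 genes there (5.81% to 11.8% of all) and 0 to 1 for rCD5L in WT mice (0% to 0.222% of all). In WT mice, DESeq2 gave 5 genes (3.82% of all with an adjusted p) and no filter on low counts gave 3 (0.43% of all), where the main test gave 0. Between genotypes under rCD5L, 11 genes passed with all 19 samples in 1 fit (7% of all) and 11 with replicates 3 and 4 of CD5L KO mice given rCD5L left out (3.58% of all), where the main test gave 0. With those 2 kidneys left out, the median log2 fold change was -0.15 for rCD5L in CD5L KO mice and 0.13 between genotypes under rCD5L. In that setting estimates for rCD5L in CD5L KO mice turned negative for Acsm3 (-0.32), Ehhadh (-0.19), Cpt1a (-0.057), Cpt2 (-0.14), Acadm (-0.20), Acadvl (-0.11) and Pdk4 (-0.47), and that between genotypes under rCD5L for Cpt1a (-0.19). For Pdk4 in CD5L KO mice, the estimate also turned negative with the replicate block (-0.14) and with limma on FPKM plus 1 (-0.075, with and without the filter) or plus 0.1 (-0.0851). Leaving out 1 kidney turned the sign in these cases: for rCD5L in CD5L KO mice, Acadm (-0.13 to 1.06) and Pdk4 (-0.26 to 0.25), between genotypes under rCD5L, Cpt1a (-0.064 to 0.38) and Pdk4 (-0.36 to 0.13), under PBS, Acadm (-0.031 to 0.16), Cpt2 (-0.033 to 0.15) and Ehhadh (-0.0081 to 0.26), and for rCD5L in WT mice, Cpt1a (-0.092 to 0.0069). For Acadm in CD5L KO mice and Cpt1a under rCD5L this was the kidney of replicate 4 of CD5L KO mice given rCD5L, for the 3 genes under PBS replicate 3 of CD5L KO mice, and for Cpt1a in WT mice replicate 4 given rCD5L. Of the single genes' values in settings other than leaving out 1 kidney, 408 kept their direction and side of the threshold, 11 crossed to below 0.05 and 13 to above it. When 1 kidney was left out, 376 did so, 2 crossed to below and 14 to above. The cause of these changes was not tested.

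The replicate numbers shared by the groups were not treated as pairs in the main test. In no comparison was the correlation of same-numbered kidneys over 0.1 for every number, but such a cut cannot exclude pairing. The correlations were 0.117, 0.0186, 0.113 and -0.0491 for numbers 1 to 4 between genotypes under PBS, 0.174, 0.1, 0.143 and 0.0165 for rCD5L in CD5L KO mice, at most 8.38e-06 for rCD5L in WT mice and at most -0.00179 between genotypes under rCD5L. With the replicate block, 12 of the 46 genes passed between genotypes under PBS, 9 higher and 3 lower, beside 12.1% of all genes. They were the 6 of the unblocked test with Acsm1, Crot, Acads, Hadh, Scp2 and Amacr, so that the carnitine shuttle, the dehydrogenases and the peroxisomal genes then held calls. With the block, 0 passed in each other comparison. Counts between 1 and 17 limit Cpt1b, and 2 of the 5 kidneys of CD5L KO mice given rCD5L stand apart in every comparison that holds that group.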
